A study of Mus musculus with 8 samples.

Results

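The nuclear lamina genes described here are Lmna, Lmnb1, Lmnb2, Lbr, Emd, Sun1, Sun2 and Tmpo, 8 of the 12294 genes in the deposited expression table. All 8 were found by symbol, and no filter on low values was applied. The set was chosen by gene name, from known members of the lamina. It was proposed once the level of Lmna had been seen to stand far higher after both drugs than after vehicle. Values of that contrast are therefore given as a description for every member, without a test, and so are those of Lmna in any contrast that shares its libraries.

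Expression was measured by QuantSeq, which reads the 3′ end of polyadenylated transcripts, in cKit+/Cd11b- I1DN leukemic progenitors sorted from transplanted mice. There were 4 groups of 2 libraries, treated for 5 days: Vehicle, AG120, AZA and AG120_AZA (the 2 drugs combined). AG120 is ivosidenib, which blocks the mutant form of the enzyme IDH1, and AZA is azacitidine, which depletes DNA methyltransferases. All groups, controls included, carry the transplanted I1DN leukemia. The labels give no alleles behind the name I1DN and no strain, age or dose, and they do not say whether the 2 libraries of a group came from different mice, so p-values measure the spread between libraries.

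The lamina is a meshwork of intermediate filaments under the inner nuclear membrane. Lamins A and C are splice forms of Lmna and are scarce in many blood progenitors, whereas the B-type lamins of Lmnb1 and Lmnb2 are made by nearly all cells. Lamin B receptor (Lbr), emerin (Emd) and the membrane-bound forms of the LAP2 proteins (Tmpo) tether chromatin to the membrane. Sun1 and Sun2 pass through this membrane to join the lamina to the cytoskeleton. The share of A-type lamin is known to set how stiff a nucleus is, and Lbr is needed for granulocyte nuclei to take their lobed shape.

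The lamin messages differ at their coding ends, which is shown because the table has 1 value for Lmna and cannot separate lamin A from lamin C. Each line below gives the last 30 coding bases with the stop codon, 5′ to 3′, from GENCODE M21 (GRCm38, the mm10 build); capitals mark a cysteine codon in position 4 from the end, the residue to which a farnesyl group is attached in lamin A precursor and B-type lamins.
Lmna-201, 665 codons (lamin A): cagagctcccagaacTGCagcatcatgtaa
Lmna-203, 574 codons (lamin C): caccaccgtgtgagtggcagccgccgctga
Lmnb2-201, 615 codons (lamin B2): actacctcaaggggcTGCcgactgatgtga
The lamin C message lacks that codon. Its annotated 3′ end lies 2057 bases from that of the lamin A message, so 3′ reads of both forms would be summed in 1 gene value.

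Promoter sequence is shown for the members with the widest spread of levels, Lmna and Sun2, with CpG dinucleotides (CG, the same on both strands) in capitals, since azacitidine acts on CpG methylation. Methylation was not analysed here. The windows are from RefSeq (GRCm38.p6), minus strand, 250 bases before to 50 after a start.
Lmna, chr3:88503303-88503602: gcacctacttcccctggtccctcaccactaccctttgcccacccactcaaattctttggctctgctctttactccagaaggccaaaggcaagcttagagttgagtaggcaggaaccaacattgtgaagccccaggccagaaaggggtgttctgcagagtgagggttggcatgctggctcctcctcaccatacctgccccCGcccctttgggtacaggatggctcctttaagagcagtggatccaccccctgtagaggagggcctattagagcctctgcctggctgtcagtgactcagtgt
Sun2, chr15:79742487-79742786: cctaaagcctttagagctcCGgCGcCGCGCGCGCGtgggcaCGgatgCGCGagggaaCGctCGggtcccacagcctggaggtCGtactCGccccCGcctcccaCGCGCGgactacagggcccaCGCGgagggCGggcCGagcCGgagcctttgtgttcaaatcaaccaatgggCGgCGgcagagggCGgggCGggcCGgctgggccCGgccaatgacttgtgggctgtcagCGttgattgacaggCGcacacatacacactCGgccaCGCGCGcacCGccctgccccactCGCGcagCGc
The Lmna window, next to the start of the lamin A and C messages (15 bases from the nearest GENCODE start), held 1 CpG, and 5.43% of 32851 windows of that length held fewer. The Sun2 window held 39, and 95.6% of windows held fewer. The median window held 7, and 94.6% of windows held at least 1. A second Lmna window, at the start of Lmna-202, held 7, and the richest windows of Lmnb2, Lbr, Emd, Sun1 and Tmpo held 24, 42, 15, 36 and 36. Neither Lmna window covered the annotated start of Lmna-206, another coding form, at 88509956.

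Lmna (ENSMUSG00000028063.15, GRCm38 chromosome 3, 88480147 to 88509956, minus strand) had the widest spread of the members, over 4.10 log2 units. Levels are log2 CPM as the authors deposited them, where CPM is a read count normalised across libraries. Lmna read 2.97 and 2.62 log2 CPM in Vehicle, 5.54 and 4.20 in AG120, 3.36 and 4.61 in AZA, and 6.72 and 6.50 in AG120_AZA. On the linear scale these normalised levels were 7.85 and 6.15 CPM in Vehicle and 105 and 90.8 CPM in AG120_AZA. Both Vehicle libraries were below the other 6, both AG120_AZA libraries were above the other 6, and the AG120 and AZA libraries overlapped.

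The group levels of Lmna were 2.80 ± 0.25 log2 CPM (SD, n = 2) in Vehicle, 3.98 ± 0.88 in AZA, 4.87 ± 0.94 in AG120 and 6.61 ± 0.15 in AG120_AZA. The log2 difference of AG120_AZA from Vehicle was 3.82 ± 0.48 (SE), a 14.1-fold higher level. AG120 alone was higher than Vehicle by 2.07 ± 0.48, AZA alone by 1.19 ± 0.48, and these contrasts share their Vehicle libraries. The libraries of each single drug were unequal. The difference of AG120 from Vehicle was 1.41 without AG120 replicate 1 and 2.74 without AG120 replicate 2, and that of AZA from Vehicle was 1.81 without AZA replicate 1 and 0.56 without AZA replicate 2. Adding AZA to AG120 went with a difference of 1.74 ± 0.48, which was 2.41 without AG120 replicate 1 and 1.07 without AG120 replicate 2. Adding AG120 to AZA went with 2.63 ± 0.48, which was 2.0 without AZA replicate 1 and 3.25 without AZA replicate 2. The differences between neighbours in this order of groups were not tested, except for that between the single drugs, whose means share no library with the contrast that drew attention to Lmna. Its SE still pools the spread of all 8 libraries, those of Vehicle and AG120_AZA included. The SDs of Vehicle and AG120_AZA were below those of AG120 and AZA, so the interval may be too narrow for the single drugs. AG120 minus AZA was 0.89 ± 0.48 (95% interval -0.18 to 1.95, limma adjusted p = 0.527). It ran from 0.22 without AG120 replicate 1 to 1.55 without AG120 replicate 2, and its adjusted p from 0.297 to 0.973 over the alternatives. A gene was called when its adjusted p was below 0.05. Of the 8 members none was called there by limma (1, Sun1, at an unadjusted p below 0.05, and 0 with vooma weights, which weight each value by a fitted mean-variance curve), against 0.252% of all genes.

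**Figure D1:**
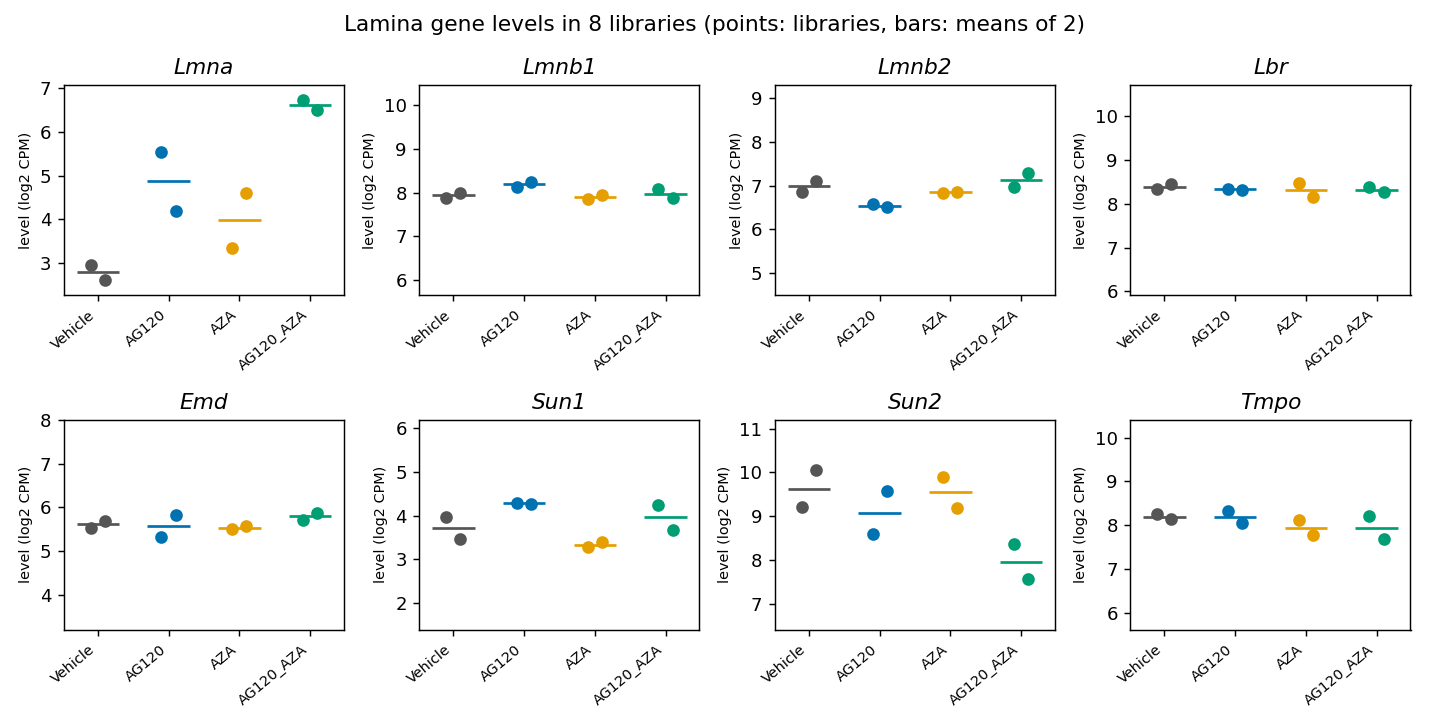
Level (log2 CPM) of each lamina gene in the 8 libraries, by group; points are libraries, bars are means of 2, and every panel spans the same number of log2 units. The mean of Lmna is 2.80 in Vehicle and 6.61 in AG120_AZA, Sun2 is lowest in AG120_AZA, and the panels of Lmnb1 and Lbr are nearly flat.

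Neither B-type lamin passed the test in any tested contrast. Lmnb1 (ENSMUSG00000024590.8, chromosome 18, 56707813 to 56753424, plus strand), which encodes lamin B1, had levels of 7.88 and 8.0 log2 CPM in Vehicle, 8.13 and 8.25 in AG120, 7.86 and 7.94 in AZA, and 8.08 and 7.87 in AG120_AZA. The AG120 libraries were the highest, 0.25 ± 0.19 above Vehicle (95% interval -0.16 to 0.66, adjusted p = 0.618). Its whole range, 0.40 log2 units, was wider than that of only 2.25% of all genes, whose median range was 1.30. Among the 1143 genes within 1 log2 unit of its mean level, 8.22% had a smaller range.

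Lmnb2 (ENSMUSG00000062075.13, chromosome 10, 80901203 to 80918245, minus strand), which encodes lamin B2, gave 6.85 and 7.11 log2 CPM under Vehicle, 6.58 and 6.51 in AG120, 6.84 and 6.86 in AZA, and 6.97 and 7.28 in AG120_AZA. The AG120 libraries were the lowest and did not overlap any other group. AG120 differed from Vehicle by -0.44 ± 0.21 (95% interval -0.90 to 0.03, adjusted p = 0.415) and AG120_AZA from AG120 by 0.58 ± 0.21 (95% interval 0.12 to 1.04, adjusted p = 0.433). The AG120 by AZA interaction, the effect of both drugs beyond the sum of each, was 0.71 ± 0.30 for Lmnb2 (adjusted p = 0.794). No gene was called in that interaction (0% of 12294, with 765 genes and 1 of the 7 members, Lmnb2, at an unadjusted p below 0.05), and the other tested members had interactions from -1.04 (Sun2) to 0.29 (Emd).

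Among the membrane tethers, Lbr (ENSMUSG00000004880.11, chromosome 1, 181815335 to 181843046, minus strand) had the narrowest spread of the 8 members, 0.32 log2 units. Its levels were 8.33 and 8.44 log2 CPM in Vehicle, 8.34 and 8.32 in AG120, 8.47 and 8.15 in AZA, and 8.37 and 8.27 in AG120_AZA, and all groups overlapped. Only 0.618% of all genes had a smaller range, and 1.97% of the 913 genes within 1 log2 unit of its mean level. The AG120 main effect was -0.02 ± 0.13 (95% interval -0.30 to 0.26, adjusted p = 0.942). Dnah14, a dynein heavy chain gene on the plus strand, had values within 0.02 of those of Lbr in every library. Its exons share 440 bases with the 3′ end of Lbr (181815335 to 181815774), and the sources used here do not say whether counting used strand, so the reads of both genes cannot be told apart and the pair is 1 measurement.

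Emd (ENSMUSG00000001964.14, chromosome X, 74254687 to 74261548, plus strand), the LEM protein emerin, read 5.53 and 5.68 log2 CPM in Vehicle, 5.32 and 5.83 in AG120, 5.50 and 5.58 in AZA, and 5.72 and 5.88 in AG120_AZA. Its range was 0.56 log2 units. The AG120 libraries spanned most of it and overlapped every other group, and both AG120_AZA libraries lay above those of Vehicle and AZA. Emd differed by 0.26 ± 0.25 between AG120_AZA and AZA (95% interval -0.29 to 0.82, adjusted p = 0.611). Gm14686, a transcribed pseudogene inside the Emd span, is counted separately in the table and lay at least 2.99 log2 units away from Emd.

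Tmpo (ENSMUSG00000019961.17, chromosome 10, 91147571 to 91181315, minus strand), the source of the LAP2 proteins, read 8.26 and 8.14 log2 CPM in Vehicle, 8.33 and 8.05 in AG120, 8.12 and 7.79 in AZA, and 8.22 and 7.69 in AG120_AZA. The groups overlapped except that both AZA libraries lay below those of Vehicle. The AZA main effect was -0.24 ± 0.16 (95% interval -0.58 to 0.10, adjusted p = 0.791). No gene was called for AZA, either in that main effect (0%) or against Vehicle (0%), and the unadjusted p was below 0.05 for 761 and 432 genes by limma, with 0 of the 7 members among them in either.

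Sun2 (ENSMUSG00000042524.14, chromosome 15, 79724070 to 79742536, minus strand), the inner membrane partner of the nesprins, had the widest spread after Lmna, 2.49 log2 units. Its level was 9.21 and 10.05 log2 CPM in Vehicle, 8.60 and 9.57 in AG120, 9.90 and 9.20 in AZA, and 8.36 and 7.56 in AG120_AZA. Both AG120_AZA libraries were below the other 6, and the other groups overlapped. The difference of AG120_AZA from Vehicle was -1.67 ± 0.39 (SE), a 3.18-fold lower level. That contrast was known when the set was chosen. The tests of Sun2 given below reuse its libraries, so their p-values are not independent of that choice.

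Against AZA alone, Sun2 in AG120_AZA differed by -1.59 ± 0.39 (95% interval -2.45 to -0.72), just short of a call (limma adjusted p = 0.0615). None of the 7 members other than Lmna was called in that contrast (1 at an unadjusted p below 0.05, and 0 with vooma weights), in which 2.26% of all genes were. Sun2 did pass without AG120_AZA replicate 1 (-1.99, adjusted p = 0.0357), with only the compared groups fitted (adjusted p = 0.0411) and on log2(CPM + 1) values (adjusted p = 0.0462); over all alternatives the adjusted p ranged from 0.0357 to 0.414. Against AG120 alone the Sun2 difference was -1.12 ± 0.39 (adjusted p = 0.425), in a contrast in which limma called 0% of genes, with 1237 genes and 2 of the 7 members (Sun2 and Lmnb2) at an unadjusted p below 0.05. AG120 and AZA alone differed from Vehicle by -0.55 ± 0.39 (adjusted p = 0.609) and -0.08 ± 0.39 (adjusted p = 1).

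Over both AZA levels, with 4 libraries that had AG120 against 4 that did not, Sun2 differed by -1.07 ± 0.31 (95% interval -1.74 to -0.39, limma adjusted p = 0.0629). None of the 7 members other than Lmna was called in this main effect (2 of 7 at an unadjusted p below 0.05, and 0 with vooma weights), against 5.85% of all genes. Sun2 passed without Vehicle replicate 1 (-1.34, adjusted p = 0.0199) and without AG120 replicate 2 (-1.36, adjusted p = 0.0131), and the adjusted p ranged from 0.0131 to 0.194 over the alternatives. The Lmna difference in the same model was 2.35 ± 0.34, of opposite sign. Within Vehicle, AG120 and AZA, the library with more Lmna had less Sun2; within AG120_AZA it had more.

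Sun1 (ENSMUSG00000036817.14, chromosome 5, 139200637 to 139249840, plus strand), the paralog of Sun2, was lowest in AZA and not in AG120_AZA. Its level was 3.98 and 3.47 log2 CPM in Vehicle, 4.30 and 4.27 in AG120, 3.28 and 3.39 in AZA, and 4.24 and 3.68 in AG120_AZA. The 4 libraries with AG120 and the 4 without it overlapped, and both AZA libraries were the lowest. The AG120 main effect was 0.59 ± 0.25 (95% interval 0.05 to 1.13, adjusted p = 0.180), and AG120 minus AZA was 0.95 ± 0.36 (adjusted p = 0.337). Read numbers are unknown, but the number of distinct values below a gene in its library is a rough guide to it. This number was 58 to 136 for Sun1 and 40 to 759 for Lmna, and at least 251 in every library for the other 6 members.

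Against Vehicle, limma gave either drug alone no call among the 7 members other than Lmna, with 0 at an unadjusted p below 0.05 and 0 with vooma weights. In AG120 against Vehicle 0.578% of all genes were called, and the median difference of these 7 members was -0.03 beside 0.00 for all genes. AZA against Vehicle had negative values in 7 of 7, with a median of -0.08 beside -0.01 for all genes and none past the test. For AG120_AZA against Vehicle, 2 of 8 members, Lmna on the higher and Sun2 on the lower side, fell among the 3.02% of genes that limma called. Those libraries drew attention to the set, so nothing is read from that count, which was 1, Lmna alone, with replicate number as a block. The median over the 8 members there was 0.09 beside 0.02 for all genes, with 5 positive and 3 negative. Of these signs, 4 turned when 1 AG120_AZA library was left out: Lmnb1 was at -0.07 and Sun1 at -0.05 without replicate 1, and Lmnb2 was at -0.01 and Tmpo at 0.02 without replicate 2. Lmnb1 also turned without Vehicle replicate 1, and Sun1 without Vehicle replicate 2.

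**Figure D2:**
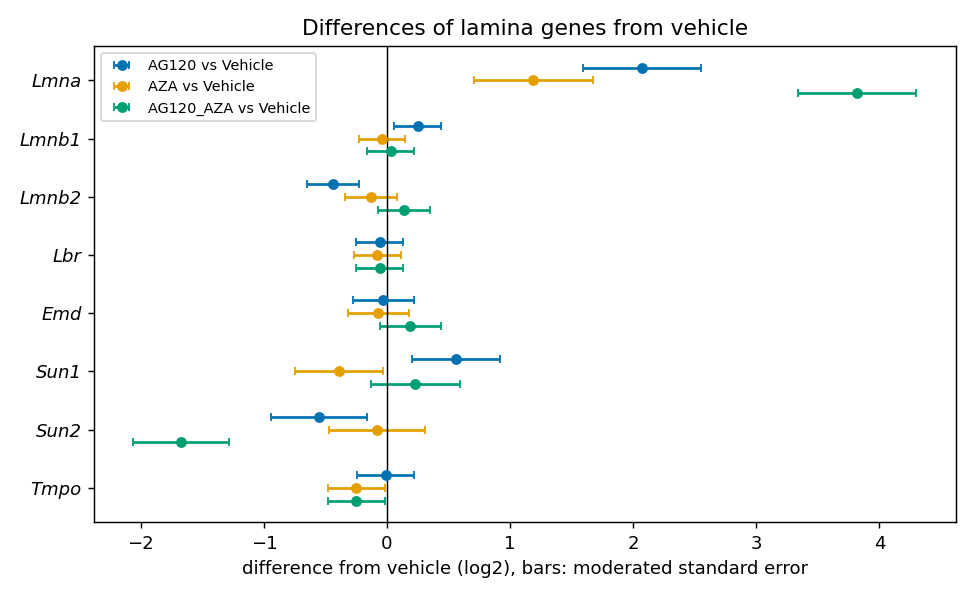
Difference of each lamina gene from Vehicle (log2) after AG120, AZA or both, with moderated standard errors; the contrasts share the 2 Vehicle libraries. Lmna lies to the right in each, at 2.07, 1.19 and 3.82, Sun2 lies at -1.67 after both drugs, and the other members lie within 0.56 of 0.

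The 5 genes most like Lmna in pattern over the 8 libraries, among 8095 named genes with a mean of at least 3 log2 CPM, were Ccdc32 (Pearson r = 0.992), Nqo1 (0.980), Phf11c (0.974), Fgfrl1 (0.973) and Tmem9 (0.972). The points share their groups and scaling, so these are descriptions. Nqo1, a quinone reductase, read 3.28 and 2.94 log2 CPM in Vehicle, 4.81 and 4.07 in AG120, 3.50 and 3.91 in AZA, and 5.01 and 4.95 in AG120_AZA. It thus had the order of Lmna within every group over a smaller range. Ccdc32 spanned 4.03 to 4.70 only. For Lmnb1 the closest were Gspt1 (0.967), Gpx1 (0.951) and Golga7 (0.949). For Lbr they were Dnah14 (0.999), Sec22a (0.935) and Krit1 (0.925).

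**Figure D3:**
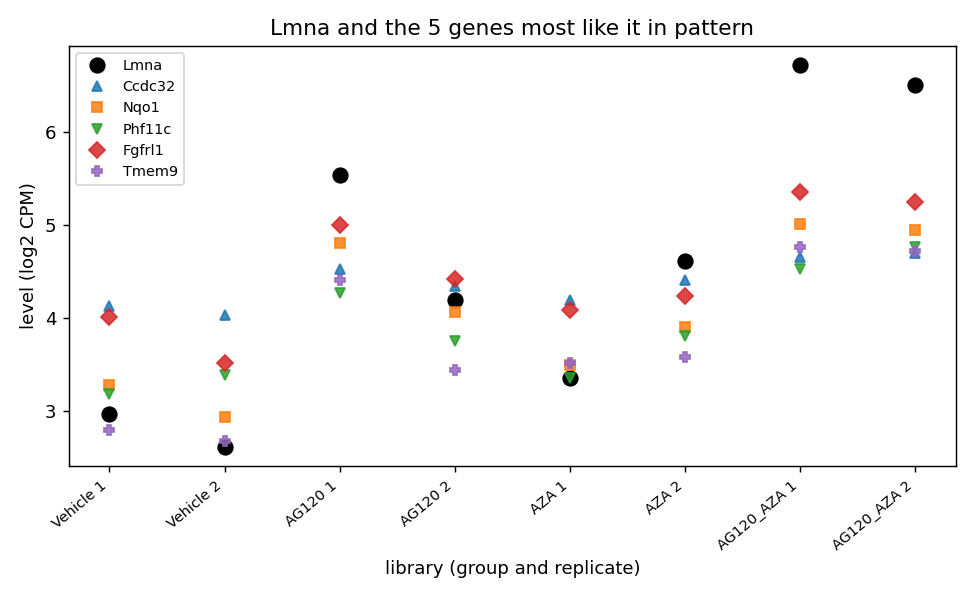
Level (log2 CPM) of Lmna (black circles) and the 5 genes with the highest correlation to it, in each library. All 6 are highest in the AG120_AZA libraries; in AG120, replicate 1 lies above replicate 2 for each, and Lmna has the widest range.

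Markers of other cell types and of the sort differed between groups beside Lmna and Sun2. Kit, the receptor used in the sort, read 6.31 and 6.59 log2 CPM in Vehicle, 5.15 and 5.84 in AG120, 6.65 and 5.54 in AZA, and 4.51 and 4.26 in AG120_AZA. Within Vehicle, AG120 and AZA, the library with more Lmna had less Kit; within AG120_AZA it had more. Kit fell by 2.06 ± 0.37 (adjusted p = 0.0148) in AG120_AZA against Vehicle, fell by 1.71 ± 0.37 (adjusted p = 0.0393) against AZA, and fell by 1.33 ± 0.27 (adjusted p = 0.0162) in the AG120 main effect. By limma Kit was not called in the other comparisons. Among these were AG120 against Vehicle (-0.95 ± 0.37, adjusted p = 0.3) and AG120_AZA against AG120 (-1.11 ± 0.37, adjusted p = 0.384). Itgam, which encodes CD11b, the marker sorted against, was present in all libraries at 2.10 to 4.53 log2 CPM. The summed level of 12 erythroid markers was 1750 to 2610 CPM in Vehicle, 739 to 2070 in AG120, 2040 to 4900 in AZA and 4250 to 4270 in AG120_AZA. This sum gives most weight to abundant genes such as the globin gene Hbb-bs. In AG120 against Vehicle 7 of the 12 were higher (3 called) and 5 lower (0 called), with a median log2 difference of 1.18. Of these 12, 12 were higher in AG120_AZA than in Vehicle and 6 were called higher.

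The 8 mast cell, basophil and eosinophil markers summed to 789 to 1100 CPM in Vehicle, 3260 to 3600 in AG120, 1270 to 1310 in AZA and 2240 to 3330 in AG120_AZA, and 4 of 8 were called higher in AG120_AZA than in Vehicle. Neutrophil markers summed to 2850 to 13000 CPM in Vehicle, 3920 to 6330 in AG120, 11100 to 15400 in AZA and 1060 to 2820 in AG120_AZA. Of these 10, 6 were lower (1 called) and 4 higher in AG120_AZA than in Vehicle. In AG120_AZA against AZA, the tested contrast where Sun2 came closest to a call, 10 of 10 neutrophil markers were lower and 5 were called. The AZA group was itself high, with 10 of 10 above Vehicle (median 2.45, 0 called). In the AG120 main effect 6 of 8 mast cell, basophil and eosinophil markers and 6 of 12 erythroid markers were called higher. Of the other 6 erythroid markers, none called, 5 were lower: the globin genes Hba-a1, Hba-a2, Hbb-bt and Hbb-bs, and Alas2, a heme synthesis gene. In the same main effect 10 of 10 neutrophil markers were lower, with 1 called. Monocyte and macrophage markers were lower in 5 of 7 (3 called), and megakaryocyte markers in 6 of 8 (1 called). The megakaryocyte list of 8 summed to 2460 to 2610, 542 to 1410, 2240 to 2710 and 3610 to 3870 CPM in the same order of groups, and none was called in AG120_AZA against Vehicle. The 7 monocyte and macrophage markers summed to 400 to 1260, 226 to 477, 529 to 734 and 218 to 271 CPM. In that contrast 5 of them were lower (3 called) and 2 higher. The 2 lymphoid markers in the table, of 7 listed, summed to 598 to 1110 CPM over all libraries, and the 1 stromal or endothelial marker, of 8 listed, to 120 to 216 CPM, with none called in any comparison. Fcer1a sat at the lowest value of its library in 3 of 8 libraries, and Ermap, Gp6, Mmp8 and Ly6g did so in 1 each. Fewer cells of a type and less RNA per cell cannot be told apart in such bulk samples, and the part of these markers in the levels of Lmna, Sun2 and the envelope genes below was not tested.

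**Figure D4:**
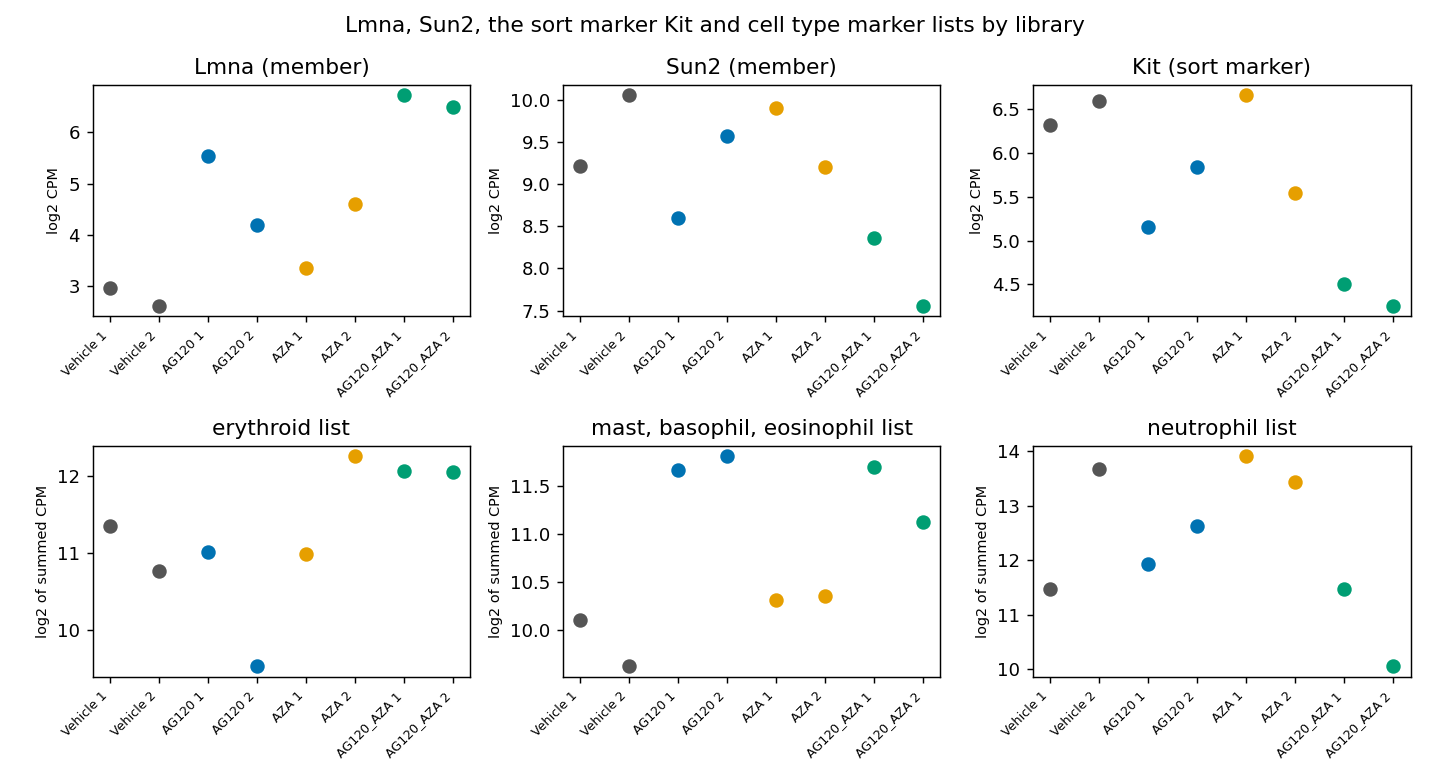
Levels by library of Lmna, Sun2 and the sort marker Kit (log2 CPM) and of 3 marker lists (log2 of summed CPM). AG120_AZA holds the highest Lmna and the lowest Sun2 and Kit, while the erythroid list is highest in AZA replicate 2 and the mast cell, basophil and eosinophil list is high in both groups with AG120.

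The rest of the nuclear envelope was read from 81 measured genes of 84 listed, grouped by role. In the AG120 main effect 1 of 81 was called, beside 5.85% of all genes, and 51 were positive (63.0%, beside 50.7% of all genes), with a median of 0.10 beside 0.01. That gene was Ahctf1, which encodes ELYS, the protein that seeds nuclear pores on chromatin. Its level was 5.13 and 5.00 log2 CPM in Vehicle, 5.85 and 5.61 in AG120, 5.15 and 4.96 in AZA, and 5.89 and 6.31 in AG120_AZA. The 4 libraries with AG120 did not overlap the other 4. Ahctf1 rose by 0.85 ± 0.18 (SE, adjusted p = 0.0193). It was not called without AG120 replicate 1 (adjusted p = 0.0825), AZA replicate 1 (adjusted p = 0.0572) or AG120_AZA replicate 2 (adjusted p = 0.0537), nor without the mean-variance trend (adjusted p = 0.0709).

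Nuclear pore genes were positive in 23 of 28 measured, with a median of 0.24. Ranbp2, a pore filament protein, differed by 1.06 ± 0.30 (adjusted p = 0.0602). Genes that process or bind lamin precursors were positive in 4 of 6. Among them were Zmpste24, the protease that matures lamin A, at 0.44 ± 0.23 (adjusted p = 0.289), and Narf at 0.88 ± 0.52 (adjusted p = 0.333). Neither passed, and Narf was low and uneven in Vehicle, at 2.80 and 0.98 log2 CPM.

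LINC complex and torsin genes, which include nesprins, the partners of Sun1 and Sun2, were positive in 4 of 8 with a median of 0.02. Tor1aip1, which encodes the torsin activator LAP1, differed by -1.11 ± 0.36 (adjusted p = 0.0928), and Tor3a by -0.66 ± 0.27 (adjusted p = 0.176). The LEM domain and BAF group, which shares a domain or binding partner with Emd and Tmpo, was positive in 5 of 6. Its leading genes were the kinase gene Vrk1 (0.31 ± 0.16, adjusted p = 0.267) and Banf1, which encodes BAF (0.17 ± 0.13, adjusted p = 0.459).

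Other inner membrane proteins were negative in 7 of 9, with a median of -0.25, led by Nrm, which encodes nurim (-0.58 ± 0.17, adjusted p = 0.0678), and Tmem43 (-0.78 ± 0.25, adjusted p = 0.0865). Chromatin partners had a median of 0.02, with Suv39h1, a histone H3 methyltransferase gene, at 0.51 ± 0.17 (adjusted p = 0.0897) and Prr14 at -0.39 ± 0.23 (adjusted p = 0.333). Lamin kinases and phosphatase anchors had a median of 0.19, with Akap8l at 1.22 ± 0.35 (adjusted p = 0.0606) and the cyclin gene Ccnb1 at 0.51 ± 0.16 (adjusted p = 0.0840). The membrane sealing genes of the ESCRT-III group had a median of -0.15, with Vps4b at -0.37 ± 0.16 (adjusted p = 0.188) and Chmp7 at -0.48 ± 0.24 (adjusted p = 0.256). In the other 8 comparisons limma called none of the 81 and vooma weights none, with 0 (AZA against Vehicle) to 19 (AG120_AZA against AZA) at an unadjusted p below 0.05.

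**Figure D5:**
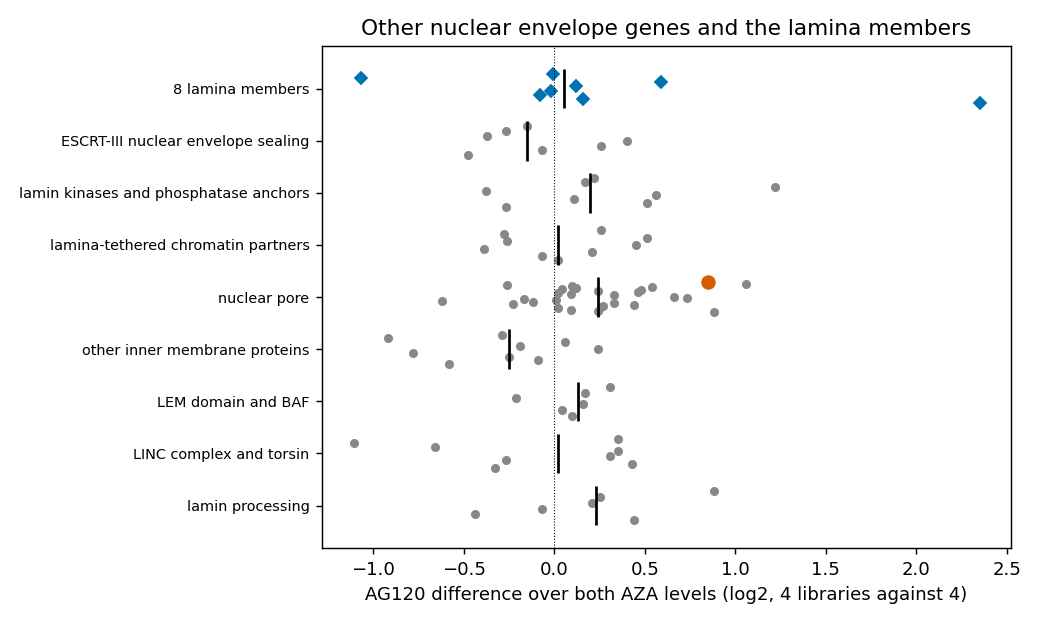
AG120 difference over both AZA levels (log2, 4 libraries against 4) of 81 other nuclear envelope genes by role (grey; the called gene Ahctf1 in orange) and of the 8 lamina members (blue), with medians as black bars. Lmna at 2.35 and Sun2 at -1.07 are the outermost members, and most other genes lie within 1 log2 unit of 0.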

How the data were processed

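QuantSeq 3′ libraries of sorted I1DN progenitors, 2 in each of 4 groups, were compared. Alignment and counting tools named in the submitters' processing notes include HISAT2 2.1.0 and featureCounts, with mm10 as the build; limma 3.42.2 is also named there. Annotation, strand and filter are not stated in them. The table deposited by the authors holds log2 CPM for 12294 genes. Every library reached the same maximum, 13.37, and 2 to the power of its values summed to 999525 to 999562. Library totals were thus removed by the authors' scaling, and depth is unknown. Scaling by totals alone would not give every library the same maximum, so the distributions appear to have been matched across libraries as well. The median differences over all genes may therefore partly reflect that scaling. The median gene had 105 to 149 distinct values below it in its library. Replicates correlated at 0.921 to 0.936.

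The deposited log2 values were used unfiltered in limma 3.58.1 (R 4.3.3, lmFit, then eBayes with trend) over all genes. The 6 pairwise contrasts and the interaction came from a model of 4 group means with 4 residual degrees of freedom, and the main effects from an additive model with 5. The p-values are two-sided, Benjamini-Hochberg adjusted over all genes, and called below 0.05. The fits were tested on simulated data first. Members and lists were chosen with earlier results of these data known.

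The text names every member and, per envelope role, each called gene and the 2 with the smallest p in the AG120 main effect. It also names the genes most correlated with Lmna (5), Lmnb1 (3) and Lbr (3), leaving out unnamed gene models. Symbols were matched to GENCODE M21 (12064 of 12294, and 8 of 8 members) and to RefSeq promoter windows (7 of 8 members). Alternatives were other fits, a filter, other scalings, a replicate block and leaving out each library. The scaling to a common median could change little, because the libraries were already close in distribution. The bisulfite sequencing of the study was not analysed here.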

Additional observations from a re-analysis of the deposited data

How the results depend on the processing

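For the 8 members, 72 differences and 9 counts of calls were recomputed under up to 15 alternatives, as were 9 counts for the other envelope genes. No member other than Lmna and Sun2 was called in any alternative. For AG120_AZA against Vehicle the members called were 2, and 0 without the trend, 0 among genes with a mean of at least 5 log2 CPM (Lmna is not among them), 1 with the replicate block, and 1 to 2 when a library was left out. For AG120_AZA against AZA the 0 became 1 (Sun2, -1.59) with only the compared groups, 1 on log2(CPM + 1) values (-1.58), and 0 to 1 over omissions (-1.99 without AG120_AZA replicate 1). In the AG120 main effect it was 0 to 1 over omissions (Sun2, -1.34 and -1.36).

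Of the other envelope genes, log2(CPM + 1) values gave 1 call for AG120_AZA against Vehicle and 2 against AZA, and the AG120 main effect gave 0 without the trend. Over omissions the counts ran from 0 to 6 against Vehicle, 0 to 2 against AG120, 0 to 6 against AZA, 0 to 3 in the AG120 main effect and 0 to 1 in the interaction. Both counts of 6 came without AG120_AZA replicate 1. The cause was not tested. Over all genes, AG120_AZA against AG120 and the interaction had no call in the fit of all 8 libraries. Both had calls when some single libraries were left out, most of them without AG120_AZA replicate 1.

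Uncalled differences near 0 changed sign when single libraries were left out. For AG120 against Vehicle, Lbr ran from -0.12 to 0.00, Emd from -0.29 to 0.23 and Tmpo from -0.15 to 0.13. For AZA against Vehicle, Lmnb1 ran from -0.10 to 0.01, Lbr from -0.24 to 0.08, Emd from -0.14 to 0.01 and Sun2 from -0.50 to 0.34. For AG120_AZA against AG120, Lbr ran from -0.05 to 0.04, Emd from -0.03 to 0.48 and Tmpo from -0.50 to 0.03; against AZA, Lmnb1 from -0.03 to 0.18, Lbr from -0.14 to 0.17 and Tmpo from -0.27 to 0.27. For AG120 against AZA, Lbr ran from -0.14 to 0.18, Emd from -0.22 to 0.29 and Sun2 from -0.95 to 0.02. For AG120_AZA against Vehicle, the farthest values after a sign change were -0.07 for Lmnb1, -0.05 for Sun1, -0.01 for Lmnb2 and 0.02 for Tmpo. In the AG120 main effect, Lmnb2 ran from -0.21 to 0.04, Lbr from -0.09 to 0.04 and Tmpo from -0.11 to 0.10; in the AZA main effect, Lbr from -0.10 to 0.03 and Emd from -0.05 to 0.15. In the interaction, Lbr ran from -0.09 to 0.23, Sun1 from -0.22 to 0.34 and Tmpo from -0.26 to 0.28. The interaction of Lmna, 0.55, was -0.11 without AG120 replicate 2.

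Over all genes, the calls for AG120_AZA against Vehicle (371) were 43 without the trend, 82 above the mean of 5 and 200 with only the compared groups, and 37 to 727 over omissions. Against AZA (278) they were 9, 67 and 297, with 427 on log2(CPM + 1) values and 14 to 594 over omissions. In the AG120 main effect (719) they were 211 and 369 under the first 2 settings and 201 to 771 over omissions. For AG120 against Vehicle (71) they ran from 0 to 103, and for AG120 against AZA (31) from 0 to 83.

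Replicate numbers are not said to mark a shared animal or batch. Deviations of same-numbered libraries correlated at -0.111 to 0.194 across genes between groups. With the replicate block, 370 genes in place of 371 were called for AG120_AZA against Vehicle, and 725 in place of 719 in the AG120 main effect.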
